A study of Mus musculus with 18 samples.

Results

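The piRNA pathway protects germ cells from transposons, and in mice it is normally silent in the body. The genes described here are 10 members of that pathway, Mael, Ddx4, Asz1, Gpat2, Tdrd1, Tdrd9, Mov10l1, Piwil1, Piwil2 and Piwil4, out of 34244 named genes measured in whole mouse embryos at E11.5. They were chosen by name as transposon-defence genes, with their levels in all 9 embryos already known, so their differences between genotypes are given as a description and not as independent evidence. The libraries came from 9 single embryos of the FVB strain, 3 of each genotype. Dnmt3b+/+ embryos carried the wild-type gene. Embryos labelled Dnmt3b-/- carried a germline null allele derived from a floxed allele. Dnmt3bCI/CI embryos carried a knock-in at the endogenous locus, made by CRISPR/Cas9 in zygotes, that replaces a pair of amino acids of the catalytic site and leaves the protein catalytically inactive (CI). The embryos came from matings of heterozygous mice and only live ones were taken, so embryos that had died by this stage were not sampled. Founder-derived lines were not told apart by the study, and no treatment was given.

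PIWI proteins are relatives of the Argonaute proteins that bind piRNAs, small RNAs that guide the silencing of transposons. Piwil2 (MILI) and Piwil4 (MIWI2) act in fetal male germ cells and Piwil1 (MIWI) acts later, in meiotic and post-meiotic germ cells. Mov10l1 is an RNA helicase that feeds precursor RNAs into piRNA production. Gpat2 and Asz1 sit on the outer mitochondrial membrane, where piRNAs are made. Ddx4 (the mouse Vasa homolog) and Mael belong to nuage, the cytoplasmic granules of germ cells, while Tdrd1 and Tdrd9 are Tudor-domain proteins that work with Piwil2 and Piwil4, respectively. Several genes of this pathway are known to be kept silent in somatic cells by methylation of CpG-rich promoters, a mark that Dnmt3b helps to place.

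The promoters of 9 of the 10 genes were found in RefSeq (GRCm38.p6), as windows of 300 bases that end 50 bases after the transcription start. Piwil2 was not matched. Where a gene had several starts, the one farthest upstream was used. The 4 stretches below are the 250 bases before the start, on the strand of the gene, with every CpG, the site of methylation in mammals, in capitals. Mael is shown as the gene with the largest fitted difference between genotypes, Ddx4 as the one with the most CpG sites, Tdrd1 as the tested one that was not called between the mutants, and Tdrd9 as one whose levels overlapped in all genotypes.
Mael: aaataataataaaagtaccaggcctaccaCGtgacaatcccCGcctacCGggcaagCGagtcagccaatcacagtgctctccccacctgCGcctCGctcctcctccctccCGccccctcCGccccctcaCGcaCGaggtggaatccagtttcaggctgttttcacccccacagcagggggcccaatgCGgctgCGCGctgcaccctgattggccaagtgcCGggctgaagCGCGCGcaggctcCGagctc
Ddx4: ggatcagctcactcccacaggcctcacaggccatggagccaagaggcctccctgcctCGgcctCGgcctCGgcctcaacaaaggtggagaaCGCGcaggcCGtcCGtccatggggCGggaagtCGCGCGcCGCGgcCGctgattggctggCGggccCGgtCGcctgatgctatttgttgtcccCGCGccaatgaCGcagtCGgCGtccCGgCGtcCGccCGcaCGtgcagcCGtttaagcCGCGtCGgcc
Tdrd1: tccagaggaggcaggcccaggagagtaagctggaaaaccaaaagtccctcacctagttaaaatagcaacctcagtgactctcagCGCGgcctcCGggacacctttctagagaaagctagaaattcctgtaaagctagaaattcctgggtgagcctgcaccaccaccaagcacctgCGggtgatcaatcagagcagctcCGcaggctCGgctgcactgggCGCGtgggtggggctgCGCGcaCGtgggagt
Tdrd9: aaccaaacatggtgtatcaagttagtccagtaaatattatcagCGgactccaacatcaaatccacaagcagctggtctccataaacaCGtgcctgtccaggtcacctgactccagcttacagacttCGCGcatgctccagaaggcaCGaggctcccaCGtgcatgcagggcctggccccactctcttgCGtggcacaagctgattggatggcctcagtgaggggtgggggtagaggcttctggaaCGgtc

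The Mael stretch is chr1:166238745-166238994 on the minus strand, that of Ddx4 is chr13:112652311-112652560 on the minus strand, that of Tdrd1 is chr19:56825959-56826208 on the plus strand and that of Tdrd9 is chr12:111971309-111971558 on the plus strand. They hold 18, 31, 11 and 8 CpG sites, respectively. Over the whole window, the count ran from 10 in Tdrd9 to 38 in Ddx4, with a median of 18, against a median of 7 over the 27018 genes with a window. The fewest CpG sites were in Tdrd9 and Piwil4 (11), which were too low to be tested for differences below, but Piwil1, which was also too low, had 18, more than Gpat2 (15) and Asz1 (17).

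**Figure D1:**
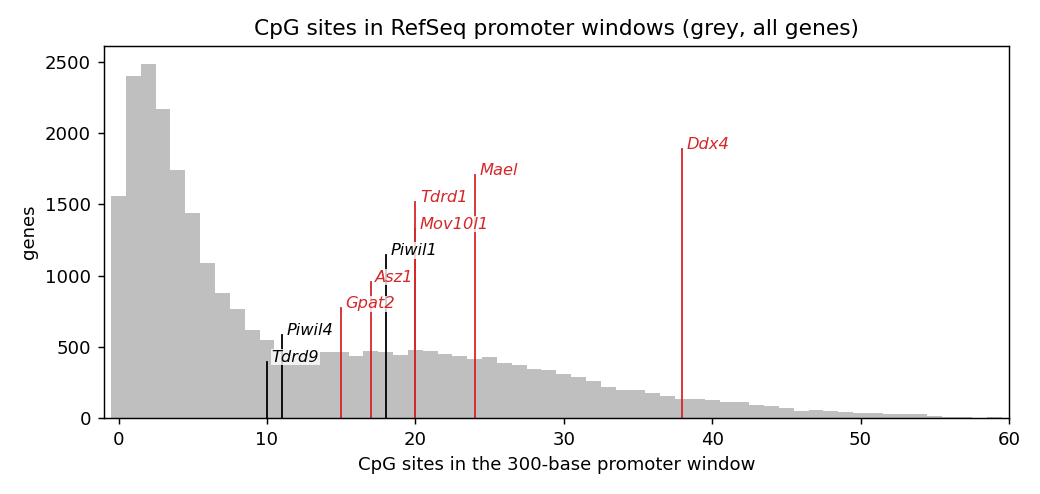
Number of CpG sites in the 300-base RefSeq promoter window (x axis) against the number of genes (y axis), in grey for all genes, with lines marking 9 piRNA pathway genes (red, called higher in embryos labelled Dnmt3b-/- than in Dnmt3b+/+; black, not tested). The height of a line has no meaning. All 9 genes lie to the right of the median of 7, from 10 in Tdrd9 to 38 in Ddx4.

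Motifs were searched on both strands of the windows. CACGTG, the E-box that reads the same on both strands, was found in 6 of the 9 genes, Ddx4, Mael, Mov10l1, Tdrd1, Piwil1 and Tdrd9, and in 7.24% of all windows. It begins 223 bases before the start in Mael, 29 in Ddx4 and 11 in Tdrd1. Piwil1 and Tdrd9, the only members with 2 E-boxes, were not tested because of their low levels. GGCGGGAA, an E2F-type motif, was found in Ddx4 alone, 137 bases before the start, and in 2.27% of all windows. TCACGTGA, an extended form of the E-box, and TGACGTCA, a cAMP response element, were found in none of the 9 genes and in 1.00% and 1.85% of all windows. These matches describe the letters only.

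Before the levels are given, 3 facts of the libraries bear on them. The totals behind the normalization were 38451730 to 49808777 reads, and 3 reads on a gene were taken as the floor of detection. Dnmt3b itself was not lower but higher in libraries labelled Dnmt3b-/-, without overlap and under 2-fold. It had 2.45, 3.12 and 3.33 FPKM (fragments per kilobase of transcript, scaled to sequencing depth) there, against 2.25, 1.62 and 2.04 FPKM in Dnmt3b+/+ and 2.06, 1.98 and 2.32 FPKM in Dnmt3bCI/CI. The sum over a gene does not show whether a transcript is functional, and these embryos are named by their label throughout. The Dnmt3b+/+ embryo 2 stood apart, with 0.119 FPKM of the liver gene Afp where the other embryos had 23.8 to 93.3 FPKM, although Ttr, another liver gene, was at its highest there with 35.5 FPKM against 2.89 to 22.5. It also had 0 reads of the germ cell gene Pou5f1, as had embryo 3 labelled Dnmt3b-/-. Dnmt3b+/+ embryo 1 and Dnmt3bCI/CI embryo 3 had 17 and 16 reads of the heart gene Myl7, where the others had 253 to 1014. Markers of liver, heart and germ cells thus varied between embryos of one genotype.

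In wild-type embryos all 10 genes were low. The mean level ran from 0.00468 FPKM for Piwil1, which had 0 reads in all 3 embryos, to 0.327 ± 0.123 FPKM for Tdrd1 (SD, n = 3). In the embryos labelled Dnmt3b-/-, Gpat2 and Mael were the highest, at 6.49 ± 1.49 and 5.91 ± 0.984 FPKM, and their embryos overlapped. Next came Ddx4 at 1.86 ± 0.0816, Mov10l1 at 1.48 ± 0.361 and Tdrd1 at 1.27 ± 0.0620 FPKM, of which Ddx4 and Mov10l1 overlapped, as did Mov10l1 and Tdrd1. Piwil2 at 0.465 ± 0.0159 and Asz1 at 0.168 ± 0.0620 FPKM were lower, without overlap with their neighbours. Tdrd9, Piwil4 and Piwil1 were below 0.1 FPKM in every one of these 3 embryos.

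**Figure D2:**
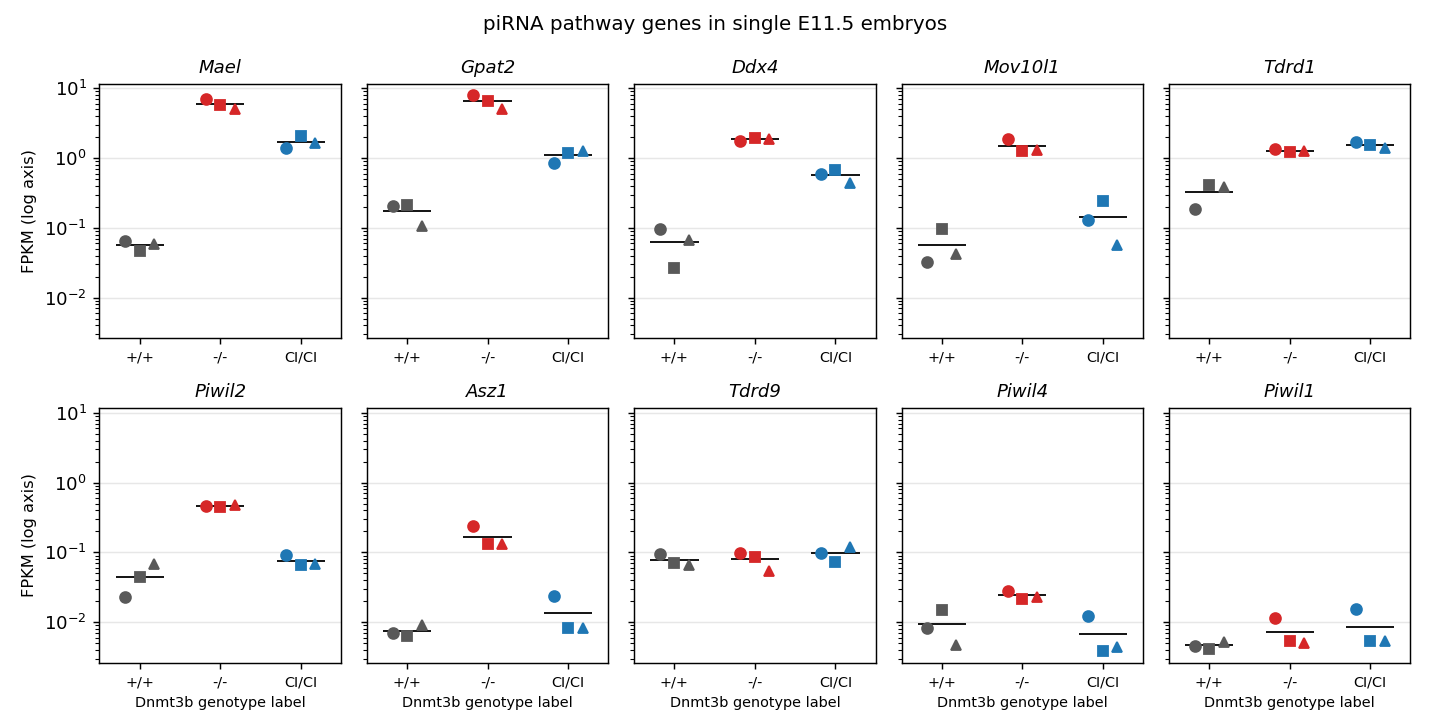
FPKM (y axis, log scale) of the 10 piRNA pathway genes in each of 9 embryos, by the label of the Dnmt3b genotype (x axis). Circles, squares and triangles are embryos 1, 2 and 3 of a group, and the line is the group's mean. A gene without reads is shown at its deposited value, which is not 0. The embryos labelled Dnmt3b-/- lie above all Dnmt3b+/+ embryos for the first 7 genes and for Piwil4, and the Dnmt3bCI/CI embryos lie between the other groups for Mael, Gpat2 and Ddx4.

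Differences between the 3 genotypes were fitted with limma on log2(FPKM + 0.1), over the 19397 genes that reached 0.1 FPKM in 3 or more of the 9 libraries. A gene was called where its adjusted p fell under 0.05 and its level differed 2-fold or more. Of the 10 genes, 7 passed the filter on low values. Asz1, Piwil2 and Mov10l1 passed it only through the embryos labelled Dnmt3b-/-, and a gene that passes in this way is bound to differ. Mael and Ddx4 were below 0.1 FPKM in every Dnmt3b+/+ embryo and passed only through the mutant groups. The filter thus bears on their calls against Dnmt3b+/+ too. Tdrd9, Piwil4 and Piwil1 did not pass and were not tested. In embryos labelled Dnmt3b-/- against Dnmt3b+/+, 7 of the 7 genes were called higher, beside 1.07% of all genes tested. In Dnmt3bCI/CI against Dnmt3b+/+, 4 of the 7 were called higher (Mael, Gpat2, Ddx4 and Tdrd1), beside 0.129% of all genes tested. In embryos labelled Dnmt3b-/- against Dnmt3bCI/CI, 6 of the 7 were called higher, Tdrd1 being the exception, beside 1.10% of all genes tested. These shares are the background of the genes tested, from which nothing is read about genes picked with the outcome known. The comparisons share their libraries and are not independent of one another.

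The nuage components Mael and Ddx4 differed between all 3 genotypes. Mael had 0.0646, 0.0463 and 0.0588 FPKM in Dnmt3b+/+, 6.93, 5.84 and 4.97 FPKM in embryos labelled Dnmt3b-/- and 1.40, 2.05 and 1.62 FPKM in Dnmt3bCI/CI. The groups did not overlap, and the wild-type values rested on 4 or 5 reads per embryo against 349 to 479 in the embryos labelled Dnmt3b-/-. On the log2(FPKM + 0.1) scale, Mael was higher than in Dnmt3b+/+ by 5.25 (SE 0.16) in embryos labelled Dnmt3b-/- and by 3.50 (SE 0.16) in Dnmt3bCI/CI. This scale understates the change of a gene this low, since the means themselves differed 104-fold and 29.9-fold. The level in Dnmt3bCI/CI was 28.6% of that in embryos labelled Dnmt3b-/-.

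Ddx4 had 0.0966, 0.0266 and 0.0677 FPKM in Dnmt3b+/+, 1.78, 1.94 and 1.87 FPKM in embryos labelled Dnmt3b-/- and 0.599, 0.667 and 0.440 FPKM in Dnmt3bCI/CI. No embryo of one group reached the range of another. The fitted difference from Dnmt3b+/+ was 3.61 (SE 0.19) and 2.04 (SE 0.19), and the level in Dnmt3bCI/CI was 30.5% of that in embryos labelled Dnmt3b-/-. With a pseudocount of 1 FPKM in place of 0.1, the Ddx4 calls of Dnmt3bCI/CI against Dnmt3b+/+ and between the mutants were lost through the fold threshold. The differences were then 0.56 and 0.87. The 3 embryos labelled Dnmt3b-/- were close together for Ddx4, with a coefficient of variation of 4.38%, compared with 16.6% for Mael.

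Of the members at the mitochondrial membrane, Gpat2 had the highest mean of all members in embryos labelled Dnmt3b-/-, and Asz1 the lowest among the tested ones. Gpat2 had 0.205, 0.214 and 0.107 FPKM in Dnmt3b+/+, 7.95, 6.55 and 4.96 FPKM in embryos labelled Dnmt3b-/- and 0.839, 1.17 and 1.28 FPKM in Dnmt3bCI/CI. The 3 groups did not overlap, with fitted differences from Dnmt3b+/+ of 4.58 (SE 0.23) and 2.13 (SE 0.23). The Gpat2 level in Dnmt3bCI/CI was 16.9% of that in embryos labelled Dnmt3b-/-. The call of Gpat2 in Dnmt3bCI/CI did not hold without Dnmt3bCI/CI embryo 2 or embryo 3 (limma adjusted p = 0.0742 and 0.0567) or on reads with voom (adjusted p = 0.192), although the fitted difference stayed at 2.07, 2.01 and, on the scale of voom, 2.62. It was also lost with a replicate block (adjusted p = 0.0736) and with a pseudocount of 1 FPKM, where the difference was 0.83 (adjusted p = 0.211).

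Asz1 had 0, 0 and 1 reads in Dnmt3b+/+, 27, 16 and 15 reads in the embryos labelled Dnmt3b-/- and 3, 1 and 0 reads in Dnmt3bCI/CI, so both other groups were at the floor. In embryos labelled Dnmt3b-/- this amounted to 0.239, 0.133 and 0.131 FPKM. The ratio of the pooled reads, per total reads, was 63.1 against Dnmt3b+/+ (exact 95% interval 10.9 to 2533) and 14.9 against Dnmt3bCI/CI (5.53 to 56.7). These intervals cover counting error only. The first ratio was 42.0 or 39.6 without Dnmt3b+/+ embryo 1 or 2, and the second was 38.6 without Dnmt3bCI/CI embryo 1. Without Dnmt3b+/+ embryo 3, which held the 1 read of its group, the first ratio could not be formed. Between Dnmt3bCI/CI and Dnmt3b+/+ no difference was detectable at this depth.

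The helicase Mov10l1 had 0.0321, 0.0960 and 0.0427 FPKM in Dnmt3b+/+, 1.90, 1.25 and 1.30 FPKM in embryos labelled Dnmt3b-/- and 0.128, 0.243 and 0.0560 FPKM in Dnmt3bCI/CI. The embryos labelled Dnmt3b-/- stood well above the others, while the Dnmt3bCI/CI and Dnmt3b+/+ embryos overlapped. The fitted difference from Dnmt3b+/+ was 3.33 (SE 0.30) in embryos labelled Dnmt3b-/-. In Dnmt3bCI/CI it was 0.57 with a 95% interval of -0.11 to 1.25, and it was not called. This scale again understates the change of a low gene, since the pooled reads of Mov10l1 differed 2.46-fold (exact 95% interval 1.62 to 3.82, counting error only). That ratio was 1.60 without Dnmt3bCI/CI embryo 2 and 3.92 without Dnmt3b+/+ embryo 2. Without the latter, the pooled reads of Mov10l1 in embryos labelled Dnmt3b-/- against Dnmt3b+/+ went from 25.0-fold to 39.9-fold.

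The Tudor-domain gene Tdrd1 was the tested member that was not called between the mutants. It had 0.185, 0.406 and 0.389 FPKM in Dnmt3b+/+, 1.34, 1.22 and 1.26 FPKM in embryos labelled Dnmt3b-/- and 1.69, 1.55 and 1.38 FPKM in Dnmt3bCI/CI. Every Dnmt3bCI/CI embryo lay above every embryo labelled Dnmt3b-/-, and the wild-type embryos lay below both, with the highest wild-type level of all 10 genes. The fitted difference from Dnmt3b+/+ was 1.73 (SE 0.21) in embryos labelled Dnmt3b-/- and 1.98 (SE 0.21) in Dnmt3bCI/CI. That between the mutants, embryos labelled Dnmt3b-/- minus Dnmt3bCI/CI, was -0.25 with a 95% interval of -0.73 to 0.22, and the ratio of pooled reads was 0.822 (exact 95% interval 0.751 to 0.901, counting error only). The call of Tdrd1 in Dnmt3bCI/CI against Dnmt3b+/+ did not hold without Dnmt3bCI/CI embryo 1 or embryo 2 (limma adjusted p = 0.0638 and 0.0592) or with only those 2 genotypes in the fit (adjusted p = 0.0646), while the fitted difference stayed at 1.92, 1.97 and 1.98. It was also lost with a replicate block (adjusted p = 0.0759), and with a pseudocount of 1 FPKM through the fold threshold, where the difference was 0.94. The other Tudor-domain gene, Tdrd9, had 14 to 23 reads per embryo in Dnmt3b+/+, 12 to 21 in embryos labelled Dnmt3b-/- and 17 to 25 in Dnmt3bCI/CI. All groups overlapped, and the ratio of pooled reads against Dnmt3b+/+ was 1.03 (exact 95% interval 0.693 to 1.53) in embryos labelled Dnmt3b-/- and 1.24 (0.858 to 1.81) in Dnmt3bCI/CI. Both intervals cover counting error only.

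Among the PIWI genes themselves, Piwil2 was the one detected at more than a few reads. It had 0.0228, 0.0450 and 0.0675 FPKM in Dnmt3b+/+, 0.464, 0.450 and 0.482 FPKM in embryos labelled Dnmt3b-/- and 0.0907, 0.0658 and 0.0688 FPKM in Dnmt3bCI/CI. The embryos labelled Dnmt3b-/- were nearly equal, with a coefficient of variation of 3.42%, and lay above all others. The fitted difference from Dnmt3b+/+ was 1.97 (SE 0.14) in embryos labelled Dnmt3b-/-, and 0.28 with a 95% interval of -0.05 to 0.61 in Dnmt3bCI/CI, where the ratio of pooled reads was 1.71 (exact 95% interval 1.05 to 2.82, counting error only) and the embryos of Dnmt3bCI/CI and Dnmt3b+/+ overlapped. Piwil4 had 2, 4 and 1 reads in Dnmt3b+/+, 6, 5 and 5 in embryos labelled Dnmt3b-/- and 3, 0 and 0 in Dnmt3bCI/CI. Its groups labelled Dnmt3b-/- and Dnmt3b+/+ did not overlap, but the ratio of pooled reads was 2.49 with an exact 95% interval of 0.967 to 7.14. Against Dnmt3bCI/CI the ratio for Piwil4 was 5.49 (1.57 to 29.4), on 16 against 3 pooled reads. Both intervals cover counting error only and not the spread between embryos, and all 3 reads came from Dnmt3bCI/CI embryo 1. Without Dnmt3bCI/CI embryo 2 the ratio was 3.62. Piwil1 was at the floor in every embryo, with at most 3 reads, and no fold is given.

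**Figure D3:**
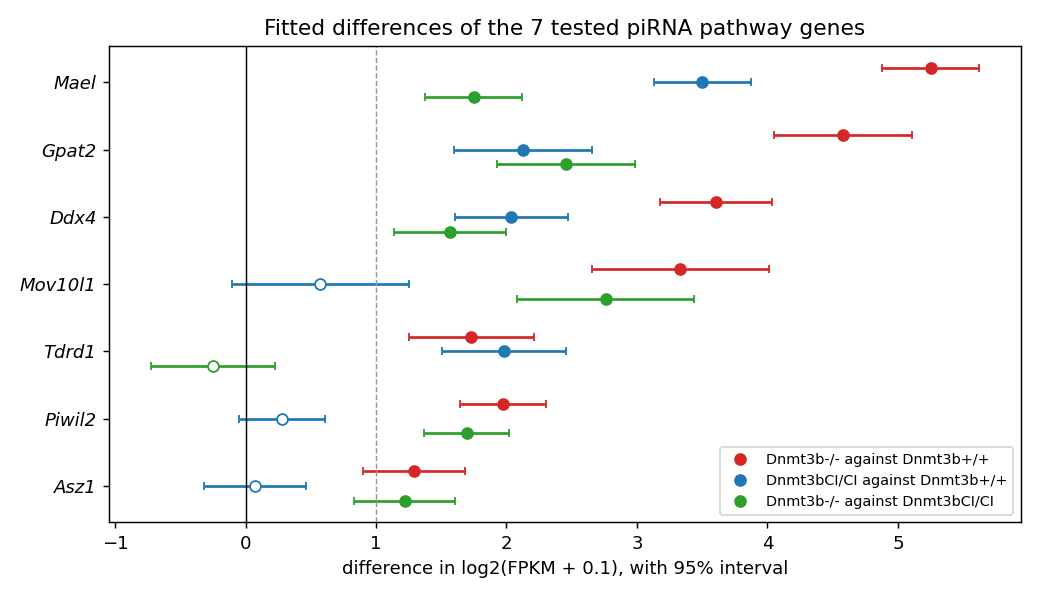
Fitted differences in log2(FPKM + 0.1) with 95% intervals (x axis) of the 7 tested piRNA pathway genes (y axis), for embryos labelled Dnmt3b-/- against Dnmt3b+/+ (red), Dnmt3bCI/CI against Dnmt3b+/+ (blue) and embryos labelled Dnmt3b-/- against Dnmt3bCI/CI (green). Filled points were called, and the dashed line marks a 2-fold change. Tdrd1 is the gene whose green interval, -0.73 to 0.22, includes 0, while the blue intervals of Mov10l1, Piwil2 and Asz1 include 0.

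The level in Dnmt3bCI/CI as a share of that in embryos labelled Dnmt3b-/- ranged, over the tested genes with more than a few reads in Dnmt3bCI/CI, from 9.59% for Mov10l1, 16.1% for Piwil2 and 16.9% for Gpat2 to 28.6% for Mael, 30.5% for Ddx4 and 121% for Tdrd1. For Asz1, with 4 pooled reads in Dnmt3bCI/CI, the share by reads was 6.70% with an exact 95% interval of 1.77% to 18.1% (counting error only). Of these 4 reads, 1 was left without Dnmt3bCI/CI embryo 1. Without Dnmt3bCI/CI embryo 2, the share of Mov10l1 was 6.19%. Whether these shares differ from one another was not tested. Within the embryos labelled Dnmt3b-/-, embryo 1 was the highest for Mael, Gpat2, Mov10l1, Asz1 and Tdrd1, while Ddx4 was highest in embryo 2 and Piwil2 in embryo 3. Leaving out Dnmt3b+/+ embryo 2, the one nearly without Afp, left 7, 4 and 6 members called in the 3 comparisons, as with all embryos.

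By position in GENCODE M21 (GRCm38), the 10 genes lie on 10 different chromosomes. Of the 7 genes called, Mael, Ddx4, Asz1 and Piwil2, are on the minus strand, and Gpat2, Tdrd1 and Mov10l1 are on the plus strand. The strandedness of the libraries was not given in the sources used here, so reads of a gene and an overlapping gene on the other strand cannot be told apart. Of the 7 members called in any comparison, none overlaps an annotated gene on the opposite strand. Tdrd9, Piwil1 and Piwil4 do. The partners of Tdrd9 and Piwil1 and 1 of 2 over Piwil4 had mean levels below 0.04 FPKM in every genotype, and the other over Piwil4, the pseudogene Gm15586, was not measured.

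Part of the rest of the pathway was also higher. Of 29 further genes with known roles in the pathway, 27 were in the table and 18 passed the filter. This list was written with earlier results of these data known. In embryos labelled Dnmt3b-/- against Dnmt3b+/+, 6 of the 18 were called higher and 0 lower, where 1.07% of all genes tested were called higher and 3.38% lower. Of these 6 genes, Tex19.1, Stk31 and Btbd18 passed the filter only through the embryos labelled Dnmt3b-/- and were bound to differ, so the counts are a description. Fkbp6 was below 0.1 FPKM in every Dnmt3b+/+ embryo and passed only through the mutant groups, which bears on its calls against Dnmt3b+/+ too. In Dnmt3bCI/CI against Dnmt3b+/+, 1 of 18 was called higher and 0 lower, where 0.129% of all genes tested were called higher and 0% lower. In embryos labelled Dnmt3b-/- against Dnmt3bCI/CI, 5 of 18 were called higher and 0 lower, where 1.10% of all genes were called higher and 4.32% lower. The balance of higher and lower calls over all genes depended on the scaling. Of the genes called in embryos labelled Dnmt3b-/- against Dnmt3b+/+, 24.1% were higher as deposited and 41.0% after quantile normalization, and against Dnmt3bCI/CI the shares were 20.3% and 40%.

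Fkbp6, a co-chaperone needed for loading piRNAs, was the gene of this list called in all 3 comparisons. It had 0.0256, 0.0344 and 0.0727 FPKM in Dnmt3b+/+, 2.09, 2.66 and 2.19 FPKM in embryos labelled Dnmt3b-/- and 0.546, 0.409 and 0.415 FPKM in Dnmt3bCI/CI. The groups did not overlap, and the fitted difference from Dnmt3b+/+ was 4.07 (SE 0.17) and 1.95 (SE 0.17). Tex19.1, a germ cell gene linked to transposon control, had 0, 0 and 2 reads in Dnmt3b+/+, 44, 86 and 75 in embryos labelled Dnmt3b-/- and 12, 6 and 5 in Dnmt3bCI/CI. Its fitted difference from Dnmt3b+/+ was 3.05 (SE 0.23) in embryos labelled Dnmt3b-/-, and 0.74 in Dnmt3bCI/CI, which was not called. Stk31, a Tudor-domain kinase-like gene, had 4, 0 and 0 reads, then 66, 63 and 59, then 9, 4 and 4 reads in Dnmt3b+/+, in embryos labelled Dnmt3b-/- and in Dnmt3bCI/CI. For both genes the embryos labelled Dnmt3b-/- lay far above all others.

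Rnf17, a Tudor-domain gene, had 0.147, 0.125 and 0.0654 FPKM in Dnmt3b+/+, 0.695, 0.822 and 0.743 FPKM in embryos labelled Dnmt3b-/- and 0.346, 0.200 and 0.258 FPKM in Dnmt3bCI/CI. The 3 groups did not overlap, and Dnmt3bCI/CI lay between the others. Pnldc1, the exonuclease that trims piRNA ends, was higher in embryos labelled Dnmt3b-/- (1.20, 1.27 and 1.15 FPKM) than in Dnmt3b+/+ (0.424, 0.464 and 0.528 FPKM), with a fitted difference of 1.20 (SE 0.11). In Dnmt3bCI/CI, Pnldc1 had 0.501, 0.479 and 0.554 FPKM and was not called. Btbd18, a nuclear factor for transcription of pachytene piRNA precursors, was called in embryos labelled Dnmt3b-/- against Dnmt3b+/+ with 1.12 (SE 0.20), at 23 to 39 reads against 3 to 10. The difference against Dnmt3bCI/CI, 0.80 (SE 0.20), was not called, being under 2-fold on the log2(FPKM + 0.1) scale, while the pooled reads of Btbd18, 87 against 32, had a ratio of 2.80 (exact 95% interval 1.85 to 4.34, counting error only). The 12 other tested genes had differences of -0.50 to 0.82 in embryos labelled Dnmt3b-/- against Dnmt3b+/+, with the Tudor-domain gene Tdrd7 at the lower and the piRNA methyltransferase Henmt1 at the upper end. In pooled reads these were 0.692-fold for Tdrd7 (exact 95% interval 0.629 to 0.762) and 2.49-fold for Henmt1 (1.68 to 3.75). In Dnmt3bCI/CI, Henmt1 was 2.28-fold (1.53 to 3.44), and both mutant groups lay above all Dnmt3b+/+ embryos for this gene. These intervals cover counting error only.

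**Figure D4:**
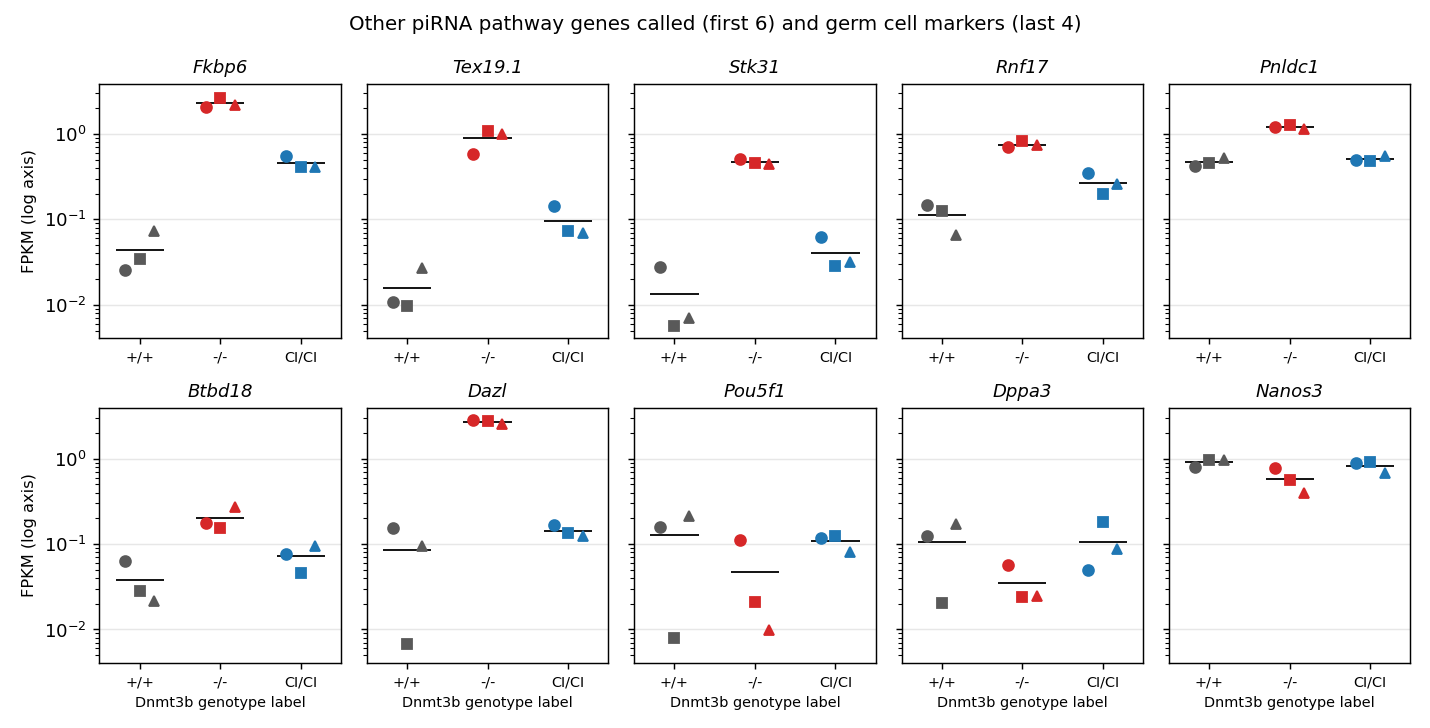
FPKM (y axis, log scale) in each of 9 embryos by the label of the Dnmt3b genotype (x axis), for the 6 further piRNA pathway genes that were called and for 4 germ cell markers. Circles, squares and triangles are embryos 1, 2 and 3, and the line is the group's mean. The first 6 genes and Dazl are highest in the embryos labelled Dnmt3b-/-, while for Pou5f1, Dppa3 and Nanos3 these embryos overlap the others or lie lower. The other 6 markers are not drawn, and of these Dnd1 was higher in the embryos labelled Dnmt3b-/-, without overlap but under 2-fold.

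Whole embryos at this stage also hold primordial germ cells, which use part of this pathway, and in RNA of whole embryos more cells of a type and more RNA per cell cannot be told apart. Of 10 markers of primordial germ cells, 8 were tested and 1, Dazl, was called higher in embryos labelled Dnmt3b-/- than in Dnmt3b+/+. None was called lower, beside 1.07% of all genes tested called higher and 3.38% lower. Dazl, an RNA-binding protein of germ cells, had 0.152, 0.00682 and 0.0953 FPKM in Dnmt3b+/+, 2.85, 2.74 and 2.56 FPKM in embryos labelled Dnmt3b-/- and 0.167, 0.133 and 0.124 FPKM in Dnmt3bCI/CI. The defining transcription factor gene Pou5f1 had 16, 0 and 19 reads in Dnmt3b+/+, 10, 2 and 0 reads in the embryos labelled Dnmt3b-/- and 12, 12 and 7 reads in Dnmt3bCI/CI. The embryo labelled Dnmt3b-/- with 0 reads of Pou5f1, embryo 3, had 349 reads of Mael, 529 of Gpat2 and 228 of Ddx4, and the one with 10 reads, embryo 1, had 479, 833 and 214.

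The other tested germ cell markers were not higher by 2-fold or more in embryos labelled Dnmt3b-/- than in Dnmt3b+/+. Dppa3 had 5, 0 and 6 reads in Dnmt3b+/+ against 2, 0 and 0 in embryos labelled Dnmt3b-/-, and Nanos3 had 33, 44 and 35 against 29, 22 and 15. Fitted differences were -0.55 (SE 0.40) for Pou5f1, -0.54 (SE 0.33) for Dppa3, -0.60 (SE 0.21) for Nanos3, -0.25 (SE 0.21) for Prdm1, -0.32 (SE 0.08) for Kit, 0.34 (SE 0.43) for Tfap2c and 0.66 (SE 0.18) for Dnd1. Dnd1 had 0.734, 0.674 and 0.613 FPKM in Dnmt3b+/+, 1.03, 1.38 and 0.992 FPKM in embryos labelled Dnmt3b-/- and 0.600, 0.795 and 0.938 FPKM in Dnmt3bCI/CI, so that the embryos labelled Dnmt3b-/- lay above all others. Nanog and Prdm14 had at most 8 and 3 reads in any embryo and were not tested. Against Dnmt3bCI/CI, Dazl and Tfap2c were called higher in embryos labelled Dnmt3b-/- and no marker lower, beside 1.1% and 4.32% of all genes tested. The summed level of all 10 markers was 7.47 to 7.86 FPKM in Dnmt3b+/+, 9.66 to 11.01 in embryos labelled Dnmt3b-/- and 6.11 to 7.31 in Dnmt3bCI/CI. In Dnmt3b+/+ most of the sum came from Kit and Tfap2c, and nothing is read from it about the number of germ cells. With Dazl left out after its values were seen, the sums were 7.46 to 7.70, 6.81 to 8.45 and 5.98 to 7.19 FPKM. Of 5 markers of spermatocytes and spermatids, 4 were at the floor in all 9 libraries.

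Some marker genes of other tissues were also called. Of 3 genes of primitive red cells, 2 were called higher in embryos labelled Dnmt3b-/- than in Dnmt3b+/+. The summed level of all 3 genes overlapped, at 1768 to 5673 FPKM against 1300 to 2057. The 2 called genes did not overlap, with Hbb-bh1 at 113 to 501 against 23.25 to 46.08 FPKM and Hba-x at 376 to 1347 against 153 to 310 FPKM. Of 3 cartilage genes, 1 was called lower, with a summed level of 71.9 to 115 FPKM against 116 to 174. Of 3 liver genes, 1 was called lower, with sums of all 3 genes that overlapped, at 38.7 to 81.6 against 35.8 to 202 FPKM. The called gene, Ttr, did not overlap, at 2.89 to 8.12 against 14.7 to 35.5 FPKM. Of 3 heart, 3 neuronal, 3 endothelial and 3 epithelial genes, 0 were called. Beside these counts, 1.07% of all genes tested were called higher and 3.38% lower. In embryos labelled Dnmt3b-/- against Dnmt3bCI/CI, 2 of 3 primitive red cell genes were called higher, and 2 of 3 cartilage genes and 1 of 3 liver genes lower, beside 1.10% and 4.32% of all genes. In Dnmt3bCI/CI against Dnmt3b+/+, 0 genes of these lists were called, germ cells included, beside 0.129% and 0%. The part of tissue make-up in the levels of the piRNA pathway genes was not tested.

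The Argonaute genes, which serve small RNAs in all cells, were measured beside their PIWI relatives. None of the 4 was called in any comparison. Their differences in embryos labelled Dnmt3b-/- against Dnmt3b+/+ were -0.04 (SE 0.12) for Ago1, -0.06 (SE 0.09) for Ago2, -0.12 (SE 0.10) for Ago3 and -0.73 (SE 0.16) for Ago4. Ago4 had 1.55, 2.12 and 1.53 FPKM in Dnmt3b+/+ and 1.21, 0.989 and 0.831 FPKM in embryos labelled Dnmt3b-/-, without overlap but under 2-fold. The summed level of the 4 genes was 31.1 to 35.5 FPKM in Dnmt3b+/+, 29.0 to 34.4 in embryos labelled Dnmt3b-/- and 29.5 to 31.1 in Dnmt3bCI/CI.

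The genes outside these lists whose pattern over the 9 libraries was most like the mean of the 7 tested members were Tex12, Ankrd31, Syce1, Tex11 and AC107755.1, with a Pearson correlation of 0.995, 0.995, 0.993, 0.990 and 0.989. The points share libraries and genotypes, so this is a description. Tex12 and Syce1 encode parts of the synaptonemal complex, and Ankrd31 and Tex11 act in meiotic recombination. Syce1 had 0.0721 ± 0.0494 FPKM in Dnmt3b+/+, 5.47 ± 0.851 in embryos labelled Dnmt3b-/- and 0.848 ± 0.0260 in Dnmt3bCI/CI (SD, n = 3 each). Of the members themselves, Gpat2 followed the mean pattern most closely (0.987) and Tdrd1 least (0.754).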

How the data were processed

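RNA-seq was analysed from 9 single whole embryos at E11.5, grouped by the genotype in the sample labels, 3 per genotype. The authors isolated total RNA, sequenced paired-end reads, mapped them after trimming to mm10 with STAR, filtered on mapping quality and counted genes in SeqMonk. They deposited 1 table in FPKM, on the linear scale. Versions, the annotation release and strandedness are not given in the sources used here. Of the 34245 genes listed, 1 without a name was left out, and 46 repeat an identifier. A gene without reads holds a deposited FPKM value worth 0.9 reads, and higher values are whole numbers of reads times a constant, so reads were worked back for 96.8% of genes (within 0.02 of a whole number) with exon lengths of GENCODE M21. Bisulfite libraries were not analysed here.

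Values were tested with limma 3.58.1 (R 4.3.3) on log2(FPKM + 0.1) with a trend on the mean level, for genes reaching 0.1 FPKM in 3 or more libraries. All 9 libraries shared the estimate of spread, and p-values were adjusted by Benjamini-Hochberg over all genes tested. The model was tested on simulated data with known changes. The floor of detection, 3 reads per gene, was a set value. Separate embryos are the replicates, and litters are not given. The embryo numbers were not treated as pairs. Same-numbered embryos of different genotypes correlated at -0.0865 on average, and those with different numbers at 0.0478. Read ratios carry conditional exact binomial intervals (scipy 1.17.1), which cover counting error only and not the spread between embryos.

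The members and gene lists were chosen with earlier results of these data known. All 10 members, further pathway genes that were called, Argonaute genes, germ cell markers, Dnmt3b and the 5 genes most like the members' mean pattern were named by rule, and other list genes were given by counts and range. Afp, Ttr, Myl7, Hbb-bh1 and Hba-x were named after their values were seen. Alternatives were other pseudocounts, filters and scalings, a replicate block, voom on reads, 2-genotype fits and leaving out each library.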

Additional observations from a re-analysis of the deposited data

How the results depend on the processing

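The members called numbered 7 in embryos labelled Dnmt3b-/- against Dnmt3b+/+, 4 in Dnmt3bCI/CI against Dnmt3b+/+ and 6 in embryos labelled Dnmt3b-/- against Dnmt3bCI/CI. With a pseudocount of 1 FPKM, which shrinks the differences of low genes by construction, they became 4, 1 and 3, and the further pathway genes called fell from 6, 1 and 5 to 1, 0 and 1. Of all 19397 genes tested, this setting called 60 higher and 133 lower, 8 and 0, and 57 and 185 in the 3 comparisons. A filter of 1 FPKM in 3 libraries left 10 of the 18 further genes tested and gave 2, 1 and 2 of them. Of the 13193 genes it left, 96 were called higher and 388 lower, 19 and 0, and 105 and 492. Asz1 and Piwil2 did not pass it, and the other tested members kept their calls. Calls without the fold threshold gave 12, 1 and 11 further genes, of which 11, 1 and 10 were higher. The remaining gene in both comparisons of embryos labelled Dnmt3b-/-, Tdrd7, was lower. Without that threshold, 1826 of all 19397 genes were called higher and 3175 lower, then 25 and 3, and 1882 and 3525. With a replicate block, which treats equal embryo numbers as pairs, 7, 2 and 6 members were called, since Gpat2 and Tdrd1 were lost in Dnmt3bCI/CI against Dnmt3b+/+. No count of further pathway genes changed under it. Leaving out each library in turn gave 7 members in the first comparison, 2 to 4 in the second and 6 in the third, where the 2 came from leaving out Dnmt3bCI/CI embryo 2, and 5 to 6, 1 and 5 further genes. The difference of Asz1 between Dnmt3bCI/CI and Dnmt3b+/+ turned from 0.07 to -0.0056 with quantile normalization, both groups being at the floor. Of 372 fitted differences of members under an alternative, 354 kept their direction and their side of the call, 17 kept the direction but lost the call and 1 was this reversal. Without the filter, Tdrd9, Piwil4 and Piwil1 were not called in any comparison, though Piwil4 in embryos labelled Dnmt3b-/- had a limma adjusted p of 0.0320 against Dnmt3b+/+ and 0.0166 against Dnmt3bCI/CI and missed the call through the 2-fold threshold on the log2(FPKM + 0.1) scale (0.19 and 0.22). Depth leaves Piwil1, with at most 3 reads in any embryo, and Asz1, with 4 pooled reads in Dnmt3bCI/CI and 1 in Dnmt3b+/+, close to the floor.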
